A study of Homo sapiens with 6 samples.

Results

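Mirtrons are short introns that fold into a miRNA hairpin once they have been spliced out. The 10 listed products come from 8 human introns that were among the earliest to be annotated in this way, miR-877 and the names miR-1224 to miR-1238. They were chosen by name, and 8 of the 10 were found among the 2549 human miRNAs of the array (miR-877-5p, miR-1224-5p, miR-1225-5p, miR-1226-5p, miR-1227-5p, miR-1229-5p, miR-1237-5p and miR-1238-3p). The other 2, miR-877-3p and miR-1225-3p, were not analysed here.

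The miRNAs were those of exosomes, small vesicles that cells release, precipitated with ExoQuick-TC from the medium of H9 cells. H9 is 1 established human ES cell line, and all cells were grown in TeSR-E8 on Matrigel. The study told the substates apart by staining colonies for the R-10G epitope, which marks pluripotency, and for vimentin, which marks mesenchymal cells. The epitope was stronger in substate 1, whereas vimentin was found in substate 2 and hardly at all in substate 1. In 3 experiments, 1 array was hybridised for each substate, and all 6 arrays were single-colour Agilent miRNA arrays. The cells of substate 1 were at passage 41, 46 and 50 in experiments 1, 2 and 3, and those of substate 2 at passage 52, 61 and 65, so that substate and later passage cannot be told apart. Within an experiment both substates had the same amount of RNA labelled, and across the 3 experiments this was 72.4, 100.0 and 51.4 ng. Experiment 1 lay on slide 1, and experiments 2 and 3 on slide 2. An amount of a miRNA per vesicle and the number of vesicles collected cannot be told apart in such samples.

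In the canonical pathway, the nuclear enzyme Drosha cuts the hairpin out of a longer transcript. A mirtron skips this step, since the spliceosome releases the intron, the lariat is opened by the debranching enzyme, and the folded intron is then cut by Dicer like any other precursor. The ends of the hairpin are therefore splice sites, and a 5p arm at the start of the intron begins with GU while a 3p arm at its end finishes with AG. Whether each listed product is made by this route was not tested.

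The mature sequences of the 8 products are shown because their ends and their G content are described below. They are RefSeq sequences (GRCh38.p14), written from 5′ to 3′ with the seed, bases 2 to 8, in capitals, and all 8 names were matched.

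hsa-miR-877-5p: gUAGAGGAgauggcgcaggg
hsa-miR-1224-5p: gUGAGGACucgggaggugg
hsa-miR-1225-5p: gUGGGUACggcccagugggggg
hsa-miR-1226-5p: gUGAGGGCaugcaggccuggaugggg
hsa-miR-1227-5p: gUGGGGCCaggcggugg
hsa-miR-1229-5p: gUGGGUAGgguuugggggagagcg
hsa-miR-1237-5p: cGGGGGCGgggccgaagcgcg
hsa-miR-1238-3p: cUUCCUCGucugucugcccc

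No 2 of the 8 products shared all bases of the seed. The closest were miR-1225-5p and miR-1229-5p, which had the same first 7 bases, and no other miRNA of the array with a RefSeq sequence had their bases 2 to 7. The seed of miR-1237-5p was also that of miR-4488. G made up between 53.8% and 64.7% of the bases of the 7 products of 5p arms, and 15.0% in miR-1238-3p.

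The hairpins of miR-1229, miR-1237 and miR-1238 show how the products lie in their introns, with the annotated mature arms in capitals. They are at chr5:179798278-179798346 (minus strand), chr11:64368602-64368703 (plus strand) and chr19:10552122-10552204 (plus strand).

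MIR1229: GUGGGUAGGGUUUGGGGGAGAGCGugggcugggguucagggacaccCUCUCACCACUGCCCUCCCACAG
MIR1237: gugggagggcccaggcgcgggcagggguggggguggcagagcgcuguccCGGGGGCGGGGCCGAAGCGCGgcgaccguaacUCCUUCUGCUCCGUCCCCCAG
MIR1238: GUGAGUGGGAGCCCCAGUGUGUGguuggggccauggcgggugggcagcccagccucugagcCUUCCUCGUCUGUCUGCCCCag

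All 8 hairpins began with GU and ended with AG, like most introns, against 36 of the 1562 human hairpins in the RefSeq table (2.30%, the 8 included). The 5p products of miR-877, miR-1224, miR-1225, miR-1226, miR-1227 and miR-1229 started at base 1 of the hairpin, at the 5′ splice site. The 5p product of miR-1237 was an exception and started at base 50 of 102. The product of miR-1238-3p ended 2 bases before the end of its hairpin. By their coordinates the hairpins lay within the genes ABCF1 (miR-877), VWA5B2 (miR-1224), PKD1 (miR-1225), DHX30 (miR-1226), PLEKHJ1 (miR-1227), MGAT4B (miR-1229), RPS6KA4 (miR-1237) and ATG4D (miR-1238). Of these hosts, PKD1 encodes polycystin-1, DHX30 an RNA helicase, MGAT4B an enzyme that branches N-glycans, RPS6KA4 a protein kinase and ATG4D a protease of autophagy.

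Detection was decided first. The scanning software reports for each miRNA a total signal and marks whether it was detected. The total adds up intensities of its probes after subtraction of the background, but not always of all its probes. In substate 1, 5, 5 and 3 of the 8 mirtron products were detected in experiments 1, 2 and 3, and in substate 2 the numbers were 5, 5 and 4. The total number of miRNAs detected was 594, 465 and 332 in substate 1 and 527, 470 and 310 in substate 2. Both counts were lowest in experiment 3, where the least RNA was labelled. Experiment 2, where the most RNA was labelled, had fewer miRNAs detected in all than experiment 1.

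Detection differed widely among the products. The products miR-1225-5p, miR-1227-5p and miR-1229-5p were detected on all 6 arrays, miR-1238-3p on 5 and miR-1224-5p on 4. On no array were miR-877-5p, miR-1226-5p and miR-1237-5p detected, and their brightest probe reached 0.468, 0.293 and 0.765 intensity units. None of their probes exceeded 3 times its own error on any array. By another mark, of signals positive and significant against background, miR-877-5p was marked in substate 1 in experiments 1 and 2. The same mark was given to miR-1226-5p and miR-1237-5p in substate 2 in experiment 1. For these 3 products a difference between substates was not detectable at this signal. In experiment 3 the mark was also given where detection failed, to miR-1224-5p in both substates and to miR-1238-3p in substate 1.

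The total signal of miR-1225-5p was 83.8, 114 and 53.6 intensity units in substate 1 in experiments 1, 2 and 3, and 37.5, 61.4 and 31.8 in substate 2. It was lower in substate 2 in each experiment, but so was the array as a whole. The 99th percentile over all human miRNAs was 476, 355 and 179.9 intensity units on the arrays of substate 1, and 269, 282 and 125.0 on those of substate 2. Total signals were therefore expressed as a percentage of this 99th percentile. For the tests, values under a common floor of 0.431% were raised to that floor and log2 was taken, which understates the differences of dim miRNAs. All differences are log2 values of substate 2 minus substate 1.

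On this scale miR-1225-5p, from an intron of PKD1, stood at 17.6%, 32.2% and 29.8% in substate 1 and at 14.0%, 21.8% and 25.4% in substate 2. It was lower in substate 2 within every experiment, while the ranges of the 2 substates overlapped because both values of experiment 1 were low. The log2 value was −1.96 ± 0.47 in substate 1 and −2.34 ± 0.45 in substate 2 (SD over 3 arrays). The difference was −0.33, −0.57 and −0.23 in the 3 experiments, with a mean of −0.38 (SE 0.11, 95% interval −0.72 to −0.03), or 1.30-fold lower. It did not pass the adjustment over the 474 miRNAs tested (limma, adjusted p = 0.206). The size of the difference depended on the scaling, with −0.10 by the 99th percentile of miRNAs detected on all arrays and −0.94 by the labelled amount alone, where the median of all tested miRNAs was 0.18 and −0.51.

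A similar pattern was found for miR-1227-5p, whose total signal was 14.0, 24.0 and 11.9 intensity units in substate 1 and 5.77, 15.5 and 6.74 in substate 2. Scaled, these were 2.95%, 6.76% and 6.60% of the 99th percentile in substate 1, and 2.15%, 5.51% and 5.39% in substate 2. Again experiment 1 held the lowest value of each substate, the ranges overlapped, and each experiment had the lower value in substate 2. The differences of −0.46, −0.29 and −0.29 varied little among experiments (SD 0.09), and their mean was −0.35 (SE 0.08, 95% interval −0.61 to −0.08; limma, adjusted p = 0.203). The direction turned, to 0.11, in a setting with another background correction (normexp), where the median of all tested miRNAs was 0.36. That setting, called the normexp correction here, also took median spot intensity and added an offset of 50. The turn can therefore not be put down to the background correction alone. The mean was −0.074 with the 99th percentile of miRNAs detected on all arrays and −0.91 with scaling by the labelled amount alone.

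The total signal of miR-1229-5p, from an intron of MGAT4B, was 138, 103 and 50.0 intensity units in substate 1 and 73.6, 86.4 and 45.3 in substate 2. After scaling it was 29.0%, 29.1% and 27.8% in substate 1 and 27.4%, 30.7% and 36.2% in substate 2. The 3 arrays of substate 1 thus lay close together, and those of substate 2 spread to both sides of them. The differences of −0.08, 0.08 and 0.38 had no common direction, and their mean was 0.13 (SE 0.13, 95% interval −0.29 to 0.54; limma, adjusted p = 0.550). The mean was −0.44 with scaling by the labelled amount alone, which moved the median of all tested miRNAs to −0.51, and 0.40 with the 99th percentile of miRNAs detected on all arrays, which moved it to 0.18. Without experiment 3 the mean was −0.0032.

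The product miR-1224-5p, from an intron of VWA5B2, had a total signal of 6.57 and 2.81 intensity units in substate 1 in experiments 1 and 2. In substate 2 it was 1.79 and 2.18. In experiment 3 the product was undetected in both substates, although both arrays gave it the mark of positive and significant signals. The scaled values were 1.38% and 0.793% in substate 1, and 0.667% and 0.773% in substate 2. The array of substate 1 in experiment 1 stood above the others, and the remaining detected values lay near the floor. With differences of −1.05 and −0.04 in experiments 1 and 2 and both arrays at the floor in experiment 3, the mean of −0.36 rested on experiment 1 (SE 0.29, 95% interval −1.28 to 0.55; limma, adjusted p = 0.448). It was −0.02 without experiment 1 and 0.32 with the normexp correction.

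The only product of a 3p arm, miR-1238-3p from an intron of ATG4D, was the one with higher scaled values in substate 2 in all 3 experiments. Its total signal was 9.55 and 2.20 intensity units in substate 1 in experiments 1 and 2 and undetected in experiment 3, and 6.89, 2.33 and 0.990 in substate 2. Scaled, it was 2.01% and 0.620% in substate 1, and 2.57%, 0.828% and 0.792% in substate 2. The ranges overlapped, since experiment 1 stood above the other experiments in both substates. The difference was 0.35 and 0.42 in experiments 1 and 2, and 0.88 in experiment 3, where the value of substate 1 was the floor. Before scaling, its probes in experiment 3 had 0.357 to 0.494 intensity units in substate 1 and 0.352 to 0.527 in substate 2. The floor value thus came from the detection mark, although that array had the other mark, of positive and significant signals. The total of 0.990 in substate 2 did not take in all 4 probes. The 0.88 of experiment 3 therefore also depends on which probes were counted. The mean difference was 0.55 (SE 0.15, 95% interval 0.07 to 1.03; limma, adjusted p = 0.203). Its size depended on the floor, with 0.88 at a lower floor and 0.12 at a higher one. It was 0.14 with scaling by the labelled amount alone, 0.13 with signals per spot and 1.43 with the log2 values deposited by the authors.

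**Figure D1:**
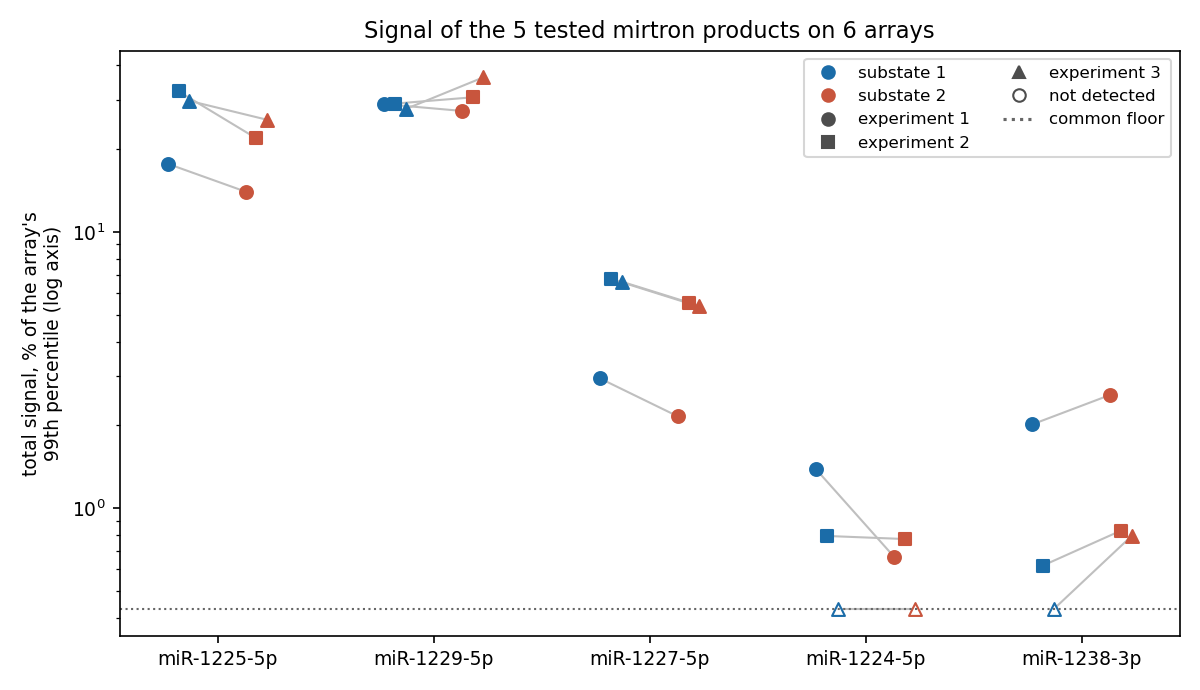
Total signal of the 5 tested mirtron products as a percentage of the 99th percentile of each array (log axis), with 1 point per array, blue for substate 1, red for substate 2, and a grey line joining the arrays of an experiment. Open symbols are undetected values drawn at the common floor of 0.431% (dotted line). The lines of miR-1225-5p and miR-1227-5p go down and those of miR-1238-3p go up in each experiment, while those of miR-1229-5p go both ways.

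Of the 5 tested products, limma called 0 in either direction (a difference of 2-fold or more with an adjusted p under 0.05), as it did 0% of the 474 miRNAs tested, for which the smallest adjusted p was 0.139. The methods' t-test, paired and here adjusted by Benjamini-Hochberg, also called 0 of the 45 miRNAs with 2-fold differences, none of which was a mirtron product. It was run on the values, floor and filter used here and not on the study's own inputs, and the Storey correction that the study names was not run. At an unadjusted p under 0.05, 2 of the 5 were lower in substate 2 (miR-1225-5p and miR-1227-5p) against 13.3% of all tested miRNAs, and 1 was higher (miR-1238-3p) against 9.7%. The same 2 products were lower in all 3 experiments, against 23.4% of all tested, and the same 1 was higher in all 3, against 21.1%. The median difference of the 5 was −0.35, with medians of −0.33, −0.04 and 0 in the 3 experiments, and that of all tested miRNAs was −0.01. For the 5 it was −0.018 without experiment 1 and 0 with signals per spot, and it turned to 0.19 with the normexp correction, where that of all tested miRNAs was 0.36. These counts concern 5 products that passed the filter on detection and not all 8.

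Because scaling shifts all miRNAs of an array together, differences were also taken relative to the median of all tested miRNAs under each of the settings that gave one. Relative to it, miR-1225-5p lay between −0.55 and −0.27 and miR-1227-5p between −0.50 and −0.24 under 16 alternative settings. Under 15 settings, the range for miR-1224-5p was −0.51 to 0, with 0 for signals per spot and −0.018 without experiment 1, and that for miR-1238-3p was 0.07 to 1.55. For miR-1229-5p it was −0.16 to 0.23, and the negative value came from the normexp correction.

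The pair with the same first 7 bases moved differently. Within an array, the change of miR-1225-5p minus that of miR-1229-5p does not depend on a scaling by 1 factor per array, and it was −0.25, −0.64 and −0.61 in the 3 experiments (mean −0.50, SD 0.22). The change of miR-1227-5p minus that of miR-1229-5p was −0.37, −0.37 and −0.67 (mean −0.47, SD 0.17). Between miR-1227-5p and miR-1225-5p the mean was 0.03 (SD 0.21). Methods that do more than scale an array moved these means, which with the normexp correction were −0.38, −0.081 and 0.30 in the same order, and with quantile normalization −0.51, −0.70 and −0.19. These pairs were chosen after the values were seen and were not tested.

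The arms of a mirtron leave the same intron, and 6 other arms of the 8 hairpins were on the array. Of these, miR-1229-3p was detected on all 6 arrays, miR-1227-3p and miR-1237-3p on the 2 arrays of experiment 1, and miR-1224-3p, miR-1226-3p and miR-1238-5p on none. Hence both arms were detected on all arrays only for miR-1229. For miR-1225 and miR-877 the other arm was not analysed here.

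hsa-miR-1229-3p: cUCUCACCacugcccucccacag
hsa-miR-1237-3p: uCCUUCUGcuccgucccccag

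These sequences show the AG of the 3′ splice site at the end of 2 of the other arms that were detected. The total signal of miR-1229-3p was 7.51, 7.39 and 2.46 intensity units in substate 1 and 2.58, 4.12 and 1.98 in substate 2. Of its 18 probe signals (3 probes on 6 arrays), 12 exceeded 3 times their error. Its scaled signal was 1.58%, 2.08% and 1.37% in substate 1 and 0.959%, 1.46% and 1.58% in substate 2. It was lower in substate 2 in experiments 1 and 2 and higher in experiment 3, with a mean difference of −0.34 (SE 0.24, 95% interval −1.10 to 0.42; limma, adjusted p = 0.409). This mean turned to 0.28 with the normexp correction, where the median of all tested miRNAs was 0.36, and it was −0.61 without experiment 3 and −0.15 without experiment 1. It was −0.90 with scaling by the labelled amount alone, −0.066 with the 99th percentile of miRNAs detected on all arrays and −0.080 with signals per spot.

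The change of miR-1229-5p minus that of miR-1229-3p was 0.64, 0.58 and 0.17 in the 3 experiments, with a mean of 0.46 (SD 0.25). The 5p arm thus had the less negative or more positive change each time. An exact two-sided sign-flip permutation test gave p = 0.25, the smallest p it can give with 3 experiments, and therefore says nothing on whether the arms differed. With the normexp correction the sign turned, to −0.09, and with signals per spot the mean was 0.26.

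For miR-1237 the detected arm was the 3p arm, with 6.84 intensity units in substate 1 and 4.67 in substate 2 in experiment 1, or 1.44% and 1.74% of the 99th percentile. No array detected its 5p arm. A total signal of 0.586 and 0.538 intensity units was found for miR-1227-3p in experiment 1, which was under the common floor on both arrays. The levels of different probes cannot be ordered, so which arm of a hairpin was more abundant was not tested.

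**Figure D2:**
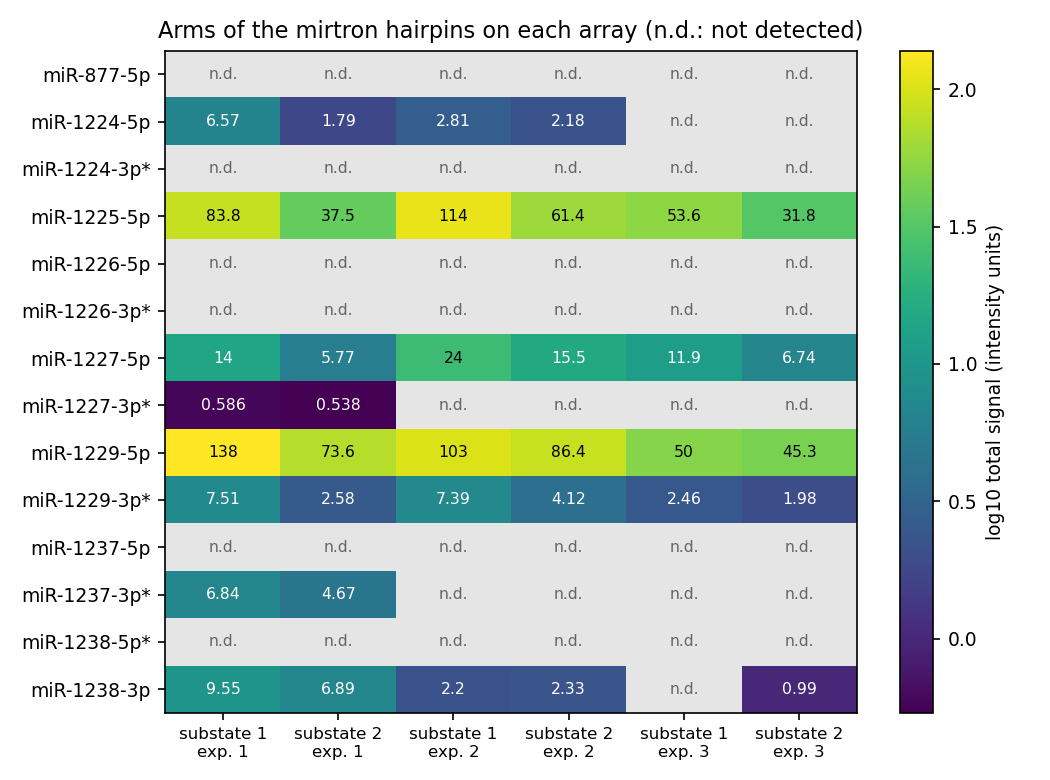
Total signal (intensity units, written in each cell, colour on a log10 scale) of the arms of the 8 mirtron hairpins on each of the 6 arrays, with n.d. for not detected and a star for arms that were not among the listed products. Colours compare arrays within a row and not the amounts of different miRNAs. Of the hairpins, only miR-1229 had both arms detected on all 6 arrays, and miR-1227-3p and miR-1237-3p were detected in experiment 1 alone.

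Several of these products also differed between experiments. Over both substates, experiment 1 lay below the mean of experiments 2 and 3 by a log2 difference of −0.78 for miR-1225-5p and −1.26 for miR-1227-5p, and above it by 0.73 for miR-1224-5p and 1.81 for miR-1238-3p. In experiment 3 both arrays of miR-1224-5p and the substate 1 array of miR-1238-3p were undetected and stood at the floor, so the size of these 2 values depends on the floor. The median over all tested miRNAs was 0.09. Only 0.633% of the tested miRNAs had a lower value than miR-1227-5p. The value for miR-1229-5p was −0.13. Slide, software version and culture all changed between experiment 1 and the others and cannot be told apart, whereas the substates were compared within each experiment. The labelled amount of experiment 1, 72.4 ng, lay between the 100.0 and 51.4 ng of experiments 2 and 3, and its part was not tested.

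By sequence, 4 of the 5 tested products held at least 50% G and the other, miR-1238-3p, held 50% C, on the limit itself. Among the 407 tested miRNAs with a RefSeq sequence, 124 held at least 50% G, of which 92 had a lower mean and 30 a higher mean in substate 2, with a median difference of −0.26 (−0.28, −0.32 and 0 in experiments 1, 2 and 3). Of all 407, 214 were lower and 180 higher. The G-rich group had 67 lower and 57 higher with the 99th percentile of miRNAs detected on all arrays (median −0.024), and 35 lower and 89 higher with the normexp correction. Without the 4 mirtron products, in the setting reported, the numbers were 89 lower and 29 higher of 120, with a median of −0.25. The 41 miRNAs with at least 50% C had 11 lower and 29 higher and a median of 0.27 (0.25, 0.40 and 0 in the 3 experiments). Of them, the 17 that were detected on all 6 arrays had 8 lower and 9 higher and a median of 0.025, and with scaling by the labelled amount alone the 41 had 20 lower and 21 higher and a median of 0.03. The values of miR-1225-5p, miR-1227-5p, miR-1224-5p and miR-1238-3p thus had the sign of the median of miRNAs with like base composition, and that of miR-1229-5p had not. Nor had that of miR-1229-3p, which held 56.5% C and had a mean of −0.34 (0.28 with the normexp correction).

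This grouping by base content was chosen after the values were seen and was not tested. Relative to the median of all tested miRNAs, the median of the G-rich group was between −0.29 and −0.05 under 16 alternative settings, although its own median turned to 0.19 with the normexp correction. That of the C-rich group was between 0 and 0.86. Experiment 1 lay above experiments 2 and 3 by a median of 1.09 in the C-rich group, against −0.0024 in the G-rich one. Whether base composition had a part in the differences of the mirtron products was not tested.

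**Figure D3:**
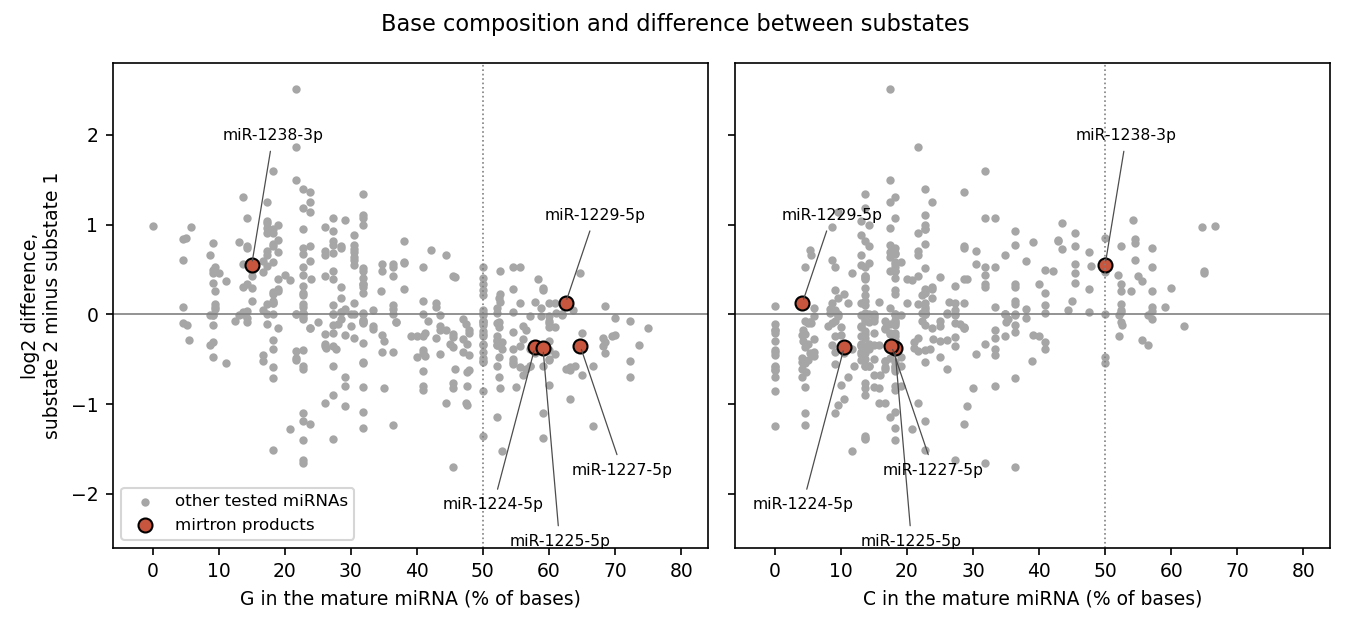
Log2 difference between the substates (substate 2 minus substate 1) against the share of G (left) and of C (right) in the mature sequence, for 402 other tested miRNAs (grey) and the 5 tested mirtron products (red), with a dotted line at 50%. The 4 products of 5p arms lie right of the line for G, 3 of them below 0, and miR-1238-3p lies on the line for C and above 0, in the setting reported. With the normexp correction miR-1224-5p and miR-1227-5p lie above 0.

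Over the whole array, detection was set against G and C content together, runs of G and the ends of the sequences. Of the 2248 miRNAs with a RefSeq sequence, 18.1% were detected on at least 3 arrays. The share was 9.82% for those with under 40% G and C together and 43.4% for those with at least 70%. It was 12.8% where no run of G was longer than 2 bases, and 48.6% where a run had at least 5. Of the 49 miRNAs that start with GUG, like most of the mirtron products, 14 (28.6%) were detected on at least 3 arrays, or 10 of 44 (22.7%) without the mirtron products, while of the 278 that end with AG 17.3% were. Of the 9 that start with GUGGG, 5 were detected as often, but 3 of these 5 were the mirtron products miR-1225-5p, miR-1227-5p and miR-1229-5p. The product with the highest G and C content, miR-1237-5p with 90.5%, was detected on no array.

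Other mirtrons and neighbouring names gave a frame for these values. Of 8 further array names between miR-1228 and miR-1239, 4 were tested, and 2 were lower and 2 higher in substate 2. Among them, miR-1228-3p was detected on all 6 arrays and was higher in all 3 experiments, with a mean difference of 0.46 (SE 0.10, 95% interval 0.15 to 0.78; limma, adjusted p = 0.178), which turned to −0.098 with scaling by the labelled amount alone. The differences of miR-1234-3p, also a 3p arm detected on all arrays, were 0.67, −0.57 and 0.40, with a mean of 0.17 (limma, adjusted p = 0.75) that turned to −0.39 with scaling by the labelled amount alone and to −0.082 without experiment 1.

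The names miR-6726 to miR-6895 are a later block that holds many annotated mirtrons, and 65 of its 338 array names were tested, with 0 called. Its 5p arms had 38 lower and 6 higher values of 44 tested and a median of −0.34, and its 3p arms 2 lower and 18 higher of 20 and a median of 0.39, against 245 lower and 215 higher of all 474. Only 3 of the tested 3p arms were detected on all 6 arrays, with 1 lower and 2 higher, so most of that count holds miRNAs undetected on some arrays. Of the 5p arms 32 were, with 28 lower and 4 higher. Among the early names, in the setting reported, 3 of the 4 tested 5p products were lower and miR-1238-3p was higher, whereas miR-1229-5p was higher and miR-1229-3p lower, and with the normexp correction miR-1224-5p, miR-1227-5p and miR-1229-3p were above 0. The difference between 5p and 3p arms of these names was not tested. The median of these later 5p arms turned to 0.19 with the normexp correction (12 lower and 32 higher), was −0.084 with the 99th percentile of miRNAs detected on all arrays (28 lower and 16 higher), and stayed below that of all tested miRNAs in 16 settings, while the median of the 3p arms was 0 with signals per spot. It was also 0.16 without experiment 2 and 0.63 without experiment 3, and with scaling by the labelled amount alone 8 of the 3p arms were lower and 12 higher, with a median of 0.05. The lowest differences in this block were those of miR-6785-5p (−1.10, adjusted p = 0.178) and miR-6763-5p (−0.94, adjusted p = 0.139), and the highest those of miR-6851-3p (0.83, adjusted p = 0.274) and miR-6880-3p (0.85, adjusted p = 0.397), all by limma. These 2 high values rested on experiment 2, without which they were 0.38 and 0.15, and miR-6880-3p was detected on 3 arrays.

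**Figure D4:**
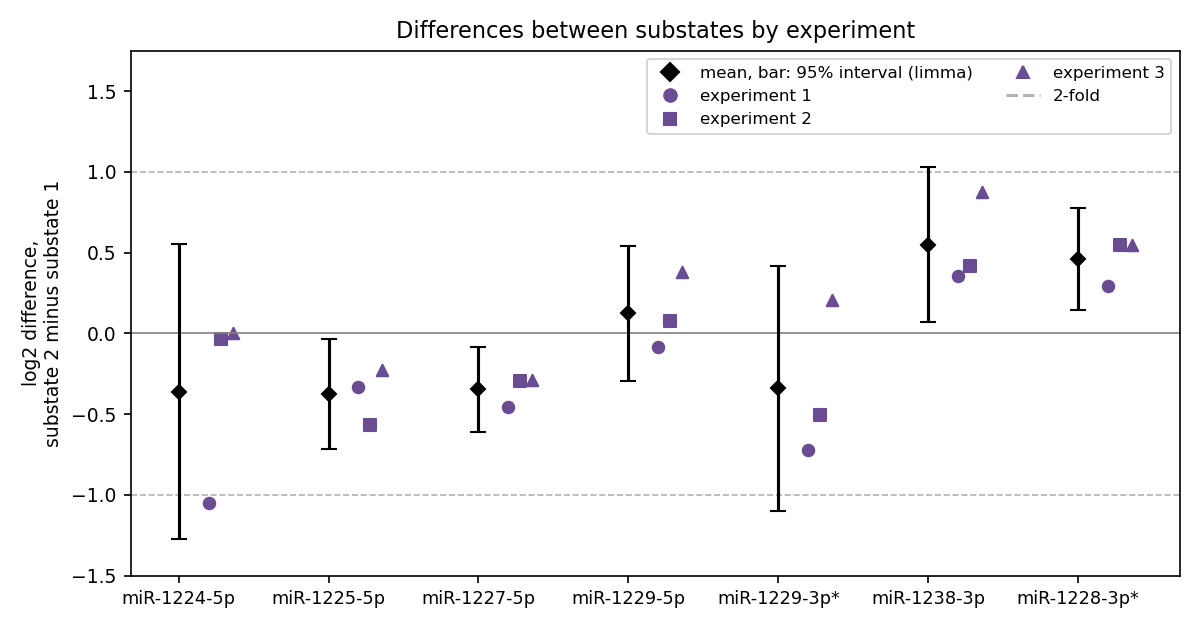
Log2 differences, substate 2 minus substate 1, for the 5 tested mirtron products and, marked with a star, miR-1229-3p and miR-1228-3p. Diamonds are means with 95% intervals from limma, purple symbols the 3 experiments, and dashed lines mark 2-fold. The intervals of miR-1225-5p and miR-1227-5p lie below 0 and those of miR-1238-3p and miR-1228-3p above it before adjustment, and with the normexp correction the mean of miR-1227-5p was above 0.

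Profiles over the 6 arrays were compared by the root mean square distance between centred log2 values, for each product detected on all arrays and the other 288 such miRNAs. The nearest to miR-1225-5p were miR-6090 (distance 0.062), miR-1207-5p (0.102) and miR-4281 (0.106). Those nearest to miR-1227-5p were miR-6068 (0.067), miR-2861 (0.077) and miR-638 (0.089). For miR-1229-5p they were miR-6126 (0.075), miR-6075 (0.092) and miR-6780b-5p (0.132). The median distance to all compared miRNAs was 0.57, 0.72 and 0.41 for the 3 products. Of the GC-rich miRNAs miR-638, miR-2861 and miR-3960, the first 2 were lower in all 3 experiments, with mean differences of −0.27 and −0.30, close to the −0.35 of miR-1227-5p, and miR-3960 had a mean of 0.23. The first turned to 0.0041 with the 99th percentile of miRNAs detected on all arrays, where miR-2861 was −0.029. The mean of miR-3960 turned to −0.33 with scaling by the labelled amount alone. Its differences were 0.29, −0.19 and 0.58 in the 3 experiments, and its mean was 0.43 without experiment 2 and 0.049 without experiment 3.

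Known miRNA markers of cell types were read from the same arrays. These hold miRNAs of exosomes, so the markers do not check the cells or their substate directly. Of 8 markers of human ES cells, miR-302a-3p, miR-302b-3p, miR-302c-3p, miR-302d-3p and miR-367-3p were detected on all 6 arrays, miR-371a-3p on 2, miR-373-3p on 1 and miR-372-3p on none. Of 16 markers of blood, liver, muscle, neurons and mesenchymal cells, 11 were detected on no array, among them all 3 of white blood cells, that of liver and all 3 of muscle. The marker miR-486-5p of red blood cells was detected on 3 arrays and had differences of −0.82, −1.13 and 0 with a mean of −0.65 (limma, adjusted p = 0.274), which turned to 0.34 with the normexp correction, and it was −0.045 at a higher floor. The mesenchymal markers miR-145-5p and miR-199a-3p were detected on 3 and 1 arrays. Only miR-124-3p and miR-128-3p, known from neurons, were found on all 6, while the third neuronal marker, miR-9-5p, was found on none. The summed total signal of the neuronal markers was 15.0, 10.4 and 5.27 intensity units in substate 1 and 9.39, 17.6 and 4.46 in substate 2, which is not scaled to the array. After scaling, miR-124-3p was higher in substate 2 in all 3 experiments, with a mean difference of 0.58 (limma, adjusted p = 0.215), which was 0.019 with scaling by the labelled amount alone. This mean was 0.37 without experiment 2 and 0.28 with signals per spot. The differences of miR-128-3p were −0.13, 1.22 and 0.09 with a mean of 0.39 (limma, adjusted p = 0.484), which turned to −0.17 with scaling by the labelled amount alone and to −0.020 without experiment 2. The 5 tested markers of ES cells had a median of −0.33 (−0.63 without experiment 2 and −0.14 without experiment 3), with −0.36, −0.51, −0.22 and −0.33 for miR-302a-3p, miR-302b-3p, miR-302c-3p and miR-302d-3p and 0.21 for miR-367-3p. With the 99th percentile of miRNAs detected on all arrays miR-302c-3p turned to 0.06, and miR-367-3p turned to −0.35 with scaling by the labelled amount alone and to −0.19 without experiment 2. Relative to all tested miRNAs their median lay between −0.62 and −0.10 under 16 alternative settings. None of these markers passed the adjustment, and their part in the values of the mirtron products was not tested.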

How the data were processed

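Exosomal miRNAs of H9 cells were measured on 6 Agilent arrays, 3 for each substate. The deposited scanner files hold intensity values from Agilent Feature Extraction (version 12.0.3.2 for experiment 1 and 11.5.1.1 for experiments 2 and 3), background-subtracted and summed per miRNA without normalization between arrays. The authors also deposited log2 values, scaled per array, which were used only as an alternative.

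Total signals were divided by the 99th percentile of the array over 2549 human miRNAs, raised to a common floor (for each array the lowest scaled signal with a detection mark was taken, and the floor was the highest of these) and log2 transformed. A miRNA was tested if 3 or more arrays detected it, which left 474. Substates were compared by two-sided moderated tests in limma (version 3.58.1, R version 4.3.3) with the experiment blocked, and p-values were adjusted by Benjamini-Hochberg over all 474. The method was tested on simulated data. The number of arrays limits the precision, and p-values cover the spread between experiments with 1 cell line. Correlations between arrays lay between 0.936 and 0.981.

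Arrays were paired by the experiment number that their labels give, as the study's own paired test does. Deviations of the 2 arrays of an experiment from their substate's mean correlated at 0.674, 0.0307 and 0.517.

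The text names the listed products, the other arms of their hairpins, further names from miR-1228 to miR-1239, the 2 lowest and 2 highest of miR-6726 to miR-6895, 3 GC-rich miRNAs, cell markers and the 3 nearest profiles of each product detected on all arrays. The members and lists were chosen with earlier results of these data known. Of the 10 listed names, 2 were not analysed here. Sequences were matched by name to RefSeq (GRCh38.p14) for 2248 miRNAs. Alternatives were other floors, scalings, background corrections, filters, fits, thresholds and left-out experiments. The normexp correction used median spot intensity and an offset of 50, so its results cannot be put down to the background correction alone.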

Additional observations from a re-analysis of the deposited data

How the results depend on the processing

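The call of 0 mirtron products was the same under every alternative run, although the methods' t-test took in none of them and the filter on all 6 arrays 3, while the count over all tested miRNAs was 3 with the normexp correction, 7 among miRNAs detected on all 6 arrays and 18 with experiment as a random block. Without the replicate block it was 1, and the block changed no call of a mirtron product. The difference of miR-1225-5p was below 0 under 19 alternatives (−0.94 to −0.10, adjusted p 0.0644 to 0.872), and that of miR-1238-3p above 0 under 18 (0.12 to 1.43, adjusted p 0.00867 to 0.805), the lowest p coming with normexp at under 2-fold. Other filters and fits could not change either difference, nor could other floors change that of miR-1225-5p, so these alternatives say nothing on its direction. The normexp setting also changed the signal used and added an offset of 50. With it the direction turned for miR-1224-5p (0.32, adjusted p = 0.0244, range 0.0244 to 1.00), for miR-1227-5p (0.11), for miR-1229-3p (0.28) and for the difference between the arms of miR-1229 (−0.091), which was 0.26 with signals per spot. For miR-1229-5p it turned with the labelled amount alone (−0.44) and without experiment 3 (−0.0032), and it was 0.40 with the 99th percentile of miRNAs detected on all arrays and at most 0.23 with 1 experiment left out. The median of the tested products was −0.074 with the 99th percentile of miRNAs detected on all arrays, −0.75 with the labelled amount alone, 0 with signals per spot and 0.19 with normexp, where the median of all tested miRNAs was 0.18, −0.51, 0 and 0.36. It was between −0.38 and −0.018 with 1 experiment left out, the value nearest 0 without experiment 1, and the difference between the arms was then between 0.38 and 0.61. Among the cell markers, the direction turned for miR-128-3p and miR-367-3p with the labelled amount alone (−0.17 and −0.35) and without experiment 2 (−0.020 and −0.19, against 0.65 and 0.51 without experiment 1), and for miR-302c-3p with the 99th percentile of miRNAs detected on all arrays (0.057). For other named miRNAs it turned with the labelled amount alone for miR-1228-3p (−0.098), miR-1234-3p (−0.39) and miR-3960 (−0.33), with normexp for miR-486-5p (0.34), and with the 99th percentile of miRNAs detected on all arrays for miR-638 (0.0041). That of miR-1234-3p was −0.082 without experiment 1 and 0.54 without experiment 2. By a mark of signals positive and significant against background, 5.67 products were detected per array on average, against 4.5. The cause of these changes was not tested. The settings were those planned, and the medians by base content and of the later names, the values of miR-1229-3p, of the cell markers and of other named miRNAs and the changes between pairs of products under them were added after seeing the data. Signals near the floor limit what miR-1224-5p and miR-1238-3p can show, and 3 experiments limit every test.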
